A study of Neurospora crassa with 24 samples.

Results

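Fungi release sugars from plant cell walls with enzymes, many of them secreted, that act in concert. Cellobiohydrolases and endoglucanases cut cellulose, beta-glucosidases split the cellobiose they release, xylanases, mannanases and arabinan enzymes open the hemicelluloses, and polygalacturonases and lyases cut pectin, while cellobiose dehydrogenase passes electrons to the gh61 polysaccharide monooxygenases, which oxidize the chains. In *Neurospora crassa* most of these genes are known to be held low on glucose, by the repressor CRE-1 among others, and to be switched on by wall polymers through the transcription factors CLR-1, CLR-2 and XLR-1.

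The 35 genes described here were chosen by their identifiers, as 7 cellulases, 3 beta-glucosidases, 5 xylanases, 4 genes of a mannan and arabinan group, 2 pectin genes, 1 cellobiose dehydrogenase gene and 13 gh61 genes, out of 9730 genes measured. They were compared in 24 poly(A) RNA libraries, 12 of the ΔMSN1 strain FGSC #11345, a knockout of *msn-1* (NCU02671), and 12 of the wild type (WT) strain FGSC #2489. *msn-1* encodes a zinc finger transcription factor related to a stress-response factor of budding yeast. Both strains grew as liquid cultures in Vogel's medium, with glucose at 2% and no plant polymer named, plus L-arginine (0.5%) and biotin, and were sampled every 2 h from 0 to 22 h of darkness after 2 days of 11 h of light and 11 h of dark. Each strain and time is 1 culture, each strain is 1 isolate, and since the labels name a lane for ΔMSN1 alone, strain and sequencing lane cannot be told apart.

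Library totals ran between 2415479 and 9829687 estimated counts in ΔMSN1 and between 2732470 and 8094126 in WT. Levels are given as CPM, the estimated count of a gene scaled to a common library total, while fold changes come from edgeR with TMM scaling. Over all genes the median log2 ratio of ΔMSN1 to WT was 0.19 on library totals and 0.01 with TMM scaling, so ratios of CPM lie somewhat above the folds given. *msn-1* was listed at 0 in 11 of 12 ΔMSN1 libraries and at 0.0413 CPM in the other one, against 25.7 to 50.8 CPM in WT. The ΔMSN1 libraries of 8 h and 22 h stood apart, with median correlations to the other libraries of 0.945 and 0.939, while the other 22 libraries lay between 0.956 and 0.975. The values of 6 conidiation markers, which mark spore formation in place of growing mycelium, summed to between 824 and 5305 CPM in ΔMSN1 and between 1007 and 6080 CPM in WT. Of the 5 markers tested, 1 differed between the strains at an adjusted p under 0.05, as did 21.8% of all genes. This was *eas*, the hydrophobin of the spore coat, lower in ΔMSN1 (log2 fold −0.88, edgeR adjusted p = 0.0187). The others did not pass, with log2 folds of −0.71 for *con-6*, −0.42 for *con-10*, 0.03 for *con-8* and 0.19 for *fl*. The part of these markers in the results below was not tested. In such bulk RNA, fewer cells of a kind and less RNA per cell cannot be told apart.

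Most of the wall enzyme genes were low, and a single pectin gene carried most of the RNA. *gh28-1* (NCU02369), a polygalacturonase gene, averaged 1781 ± 931 CPM in ΔMSN1 and 2499 ± 1186 CPM in WT (SD, n = 12 each), and made up a median of 79.7% of the summed CPM of the 35 genes in ΔMSN1 and 84.1% in WT. Without it, the other genes summed to a median of 396 CPM in ΔMSN1 (298 to 467) and 422 CPM in WT (356 to 570), so these sums overlapped.

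The leading genes were then ordered by their mean CPM per kilobase of gene (kb). In ΔMSN1 *gh28-1* (1140 CPM per kb) was followed by NCU02343 of the mannan and arabinan group (37.7), the gh61 genes *gh61-6* (22.8), NCU07974 (16.1) and NCU02344 (14.7), and the beta-glucosidase gene *gh1-1* (10.4). In WT *gh28-1* (1600 CPM per kb) was followed by NCU02344 (37.2), NCU02343 (34.1), *gh61-6* (19.8), *gh61-9* (17.8) and NCU07974 (14.0). Below *gh28-1*, which overlapped no other gene, each gene listed in either order overlapped the next over the 12 libraries, so the order of these neighbours was not beyond their spread. In ΔMSN1, for example, NCU07974 had 9.2 to 24.2 CPM per kb and NCU02344 8.93 to 18.8, and in WT NCU02344 had 21.0 to 54.7 CPM per kb and NCU02343 24.02 to 42.8. NCU02344 (*gh61-12*) and NCU02343 also lie next to each other in the genome, with 0 genes between them in the reference annotation.

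**Figure D1:**
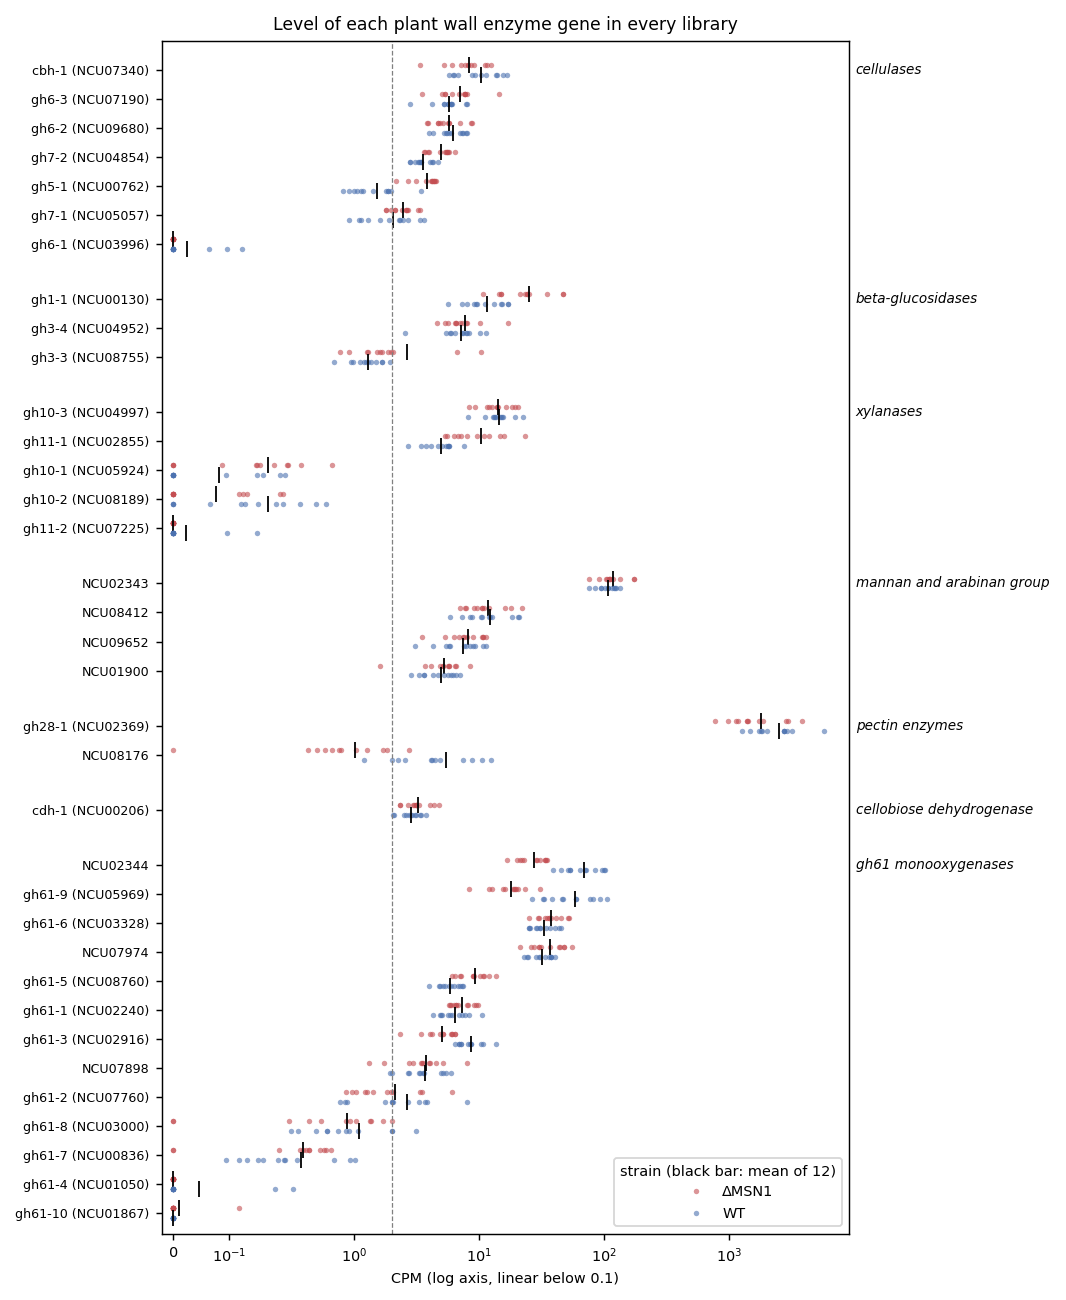
CPM of each of the 35 genes in every library, on a log axis that is linear below 0.1, with ΔMSN1 above WT for each gene and a black bar at the mean of 12 libraries; the dashed line marks 2 CPM. *gh28-1* lies far to the right of all other genes in both strains, and NCU02344 is the only gene whose ΔMSN1 points all lie left of its WT points.

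A gene was tested for a strain effect when its mean over the 24 libraries reached 2 CPM, which 26 of the 35 genes did and 9 did not. *gh7-1*, an endoglucanase gene, was just inside this limit at 2.26 CPM and *gh3-3*, a beta-glucosidase gene, just outside at 1.99 CPM. Over all 12 libraries of a strain, the estimated counts of *gh3-3* summed to 193 in ΔMSN1 and 79.5 in WT, those of *gh61-8* to 60.5 and 66.0, and those of *gh61-7* to 23.9 and 20.0. For the xylanase genes *gh10-2* and *gh10-1* the sums were 5.28 and 11.3 in ΔMSN1, against 13.9 and 5.26 in WT. The remaining 4 were near absence, since *gh6-1* (a cellulase gene), *gh11-2* (a xylanase gene) and *gh61-4* were listed at 0 in all ΔMSN1 libraries with sums of 2.05, 1.5 and 2.11 in WT, and *gh61-10* had a sum of 0.459 in ΔMSN1 and was listed at 0 in all WT libraries.

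The strain comparison asked which of these genes differ in level when *msn-1* is missing, with time as a factor so that cultures of the same hour were compared. At an adjusted p under 0.05, 9 of the 26 tested genes differed, while 21.8% of all 7310 genes tested did so, and 4 were higher in ΔMSN1 (11.9% of all genes) and 5 lower (9.93% of all genes). *gh5-1* passed the filter through ΔMSN1 alone and NCU08176 through WT alone, and of the 24 genes whose mean reached 2 CPM in each strain 7 differed. The share of all genes under this stricter filter was not counted, so the 7 of 24 has no background beside it. The median log2 fold was −0.07 over the 26 genes and 0.01 over all genes, and the median size of the log2 fold was 0.23 over the 26 genes and 0.16 over all genes. Without the TMM factors, an alternative chosen after seeing the data, 2378 genes were higher and 277 lower in place of 870 and 726, and of the 9 genes *cbh-1* was lost while *gh7-2* was added.

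**Figure D2:**
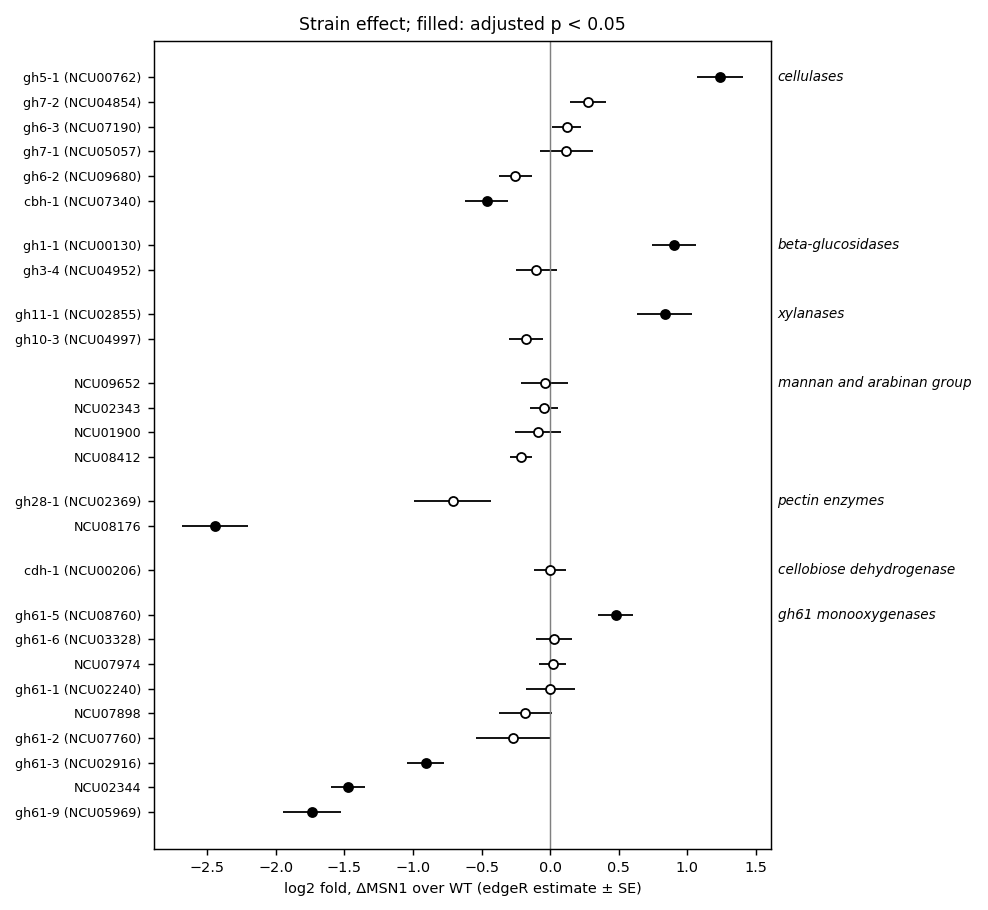
Log2 fold of ΔMSN1 over WT with its standard error for the 26 tested genes, by enzyme class; filled points have an edgeR adjusted p under 0.05. Folds run from −2.44 for NCU08176 to 1.24 for *gh5-1*, which each passed the filter through 1 strain alone, and the filled points lie on both sides of 0.

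Rises and falls were spread over the classes. Of 6 cellulase genes tested, 1 rose and 1 fell, of 2 beta-glucosidase genes 1 rose, of 2 xylanase genes 1 rose, of 4 genes of the mannan and arabinan group 0 passed the test (1 at an unadjusted p under 0.05, 0 by DESeq2 or limma-voom, which called 18.9% and 22.2% of all genes), of 2 pectin genes 1 fell, the cellobiose dehydrogenase gene did not pass, and of 9 gh61 genes 1 rose and 3 fell. The median log2 folds per class were 0.12 for cellulases, 0.40 for beta-glucosidases, 0.33 for xylanases, −0.07 for the mannan and arabinan group, −1.58 for the pectin genes and −0.18 for the gh61 genes, with 0.01 over all genes. The medians of the cellulases and the pectin genes include *gh5-1* and NCU08176, which each passed the filter through 1 strain alone. The share of all genes at an unadjusted p under 0.05 was not counted. No test was made of the classes themselves.

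Among the cellulases, *gh5-1* (NCU00762), an endoglucanase gene, was between 2.18 and 4.51 CPM in ΔMSN1 (median 4.19) and between 0.816 and 3.44 CPM in WT (median 1.30). In CPM on library totals, without TMM scaling, it was higher in ΔMSN1 at all 12 times, as were 6.11% of all genes. The ranges overlapped, however, through the WT library of 22 h. Its fold was 2.36 (log2 1.24 ± 0.17 SE, adjusted p = 0.000104), on sums of only 244 estimated counts in ΔMSN1 and 92.5 in WT. It passed the filter through ΔMSN1 alone, where it is higher. *cbh-1* (NCU07340), a cellobiohydrolase gene, went the other way with a log2 fold of −0.46 ± 0.16 (adjusted p = 0.0453), being 3.36 to 12.5 CPM in ΔMSN1 (median 8.10) and 5.77 to 16.6 CPM in WT (median 9.87). It was lower at 7 of 12 times, and its call was lost in 11 of 21 alternatives, among them leaving out 2, 6, 10, 14, 16, 18 or 22 h (adjusted p between 0.0661 and 0.102). The top cellulase per kilobase, the cellobiohydrolase gene *gh6-2* (NCU09680), had 3.83 to 8.73 CPM in ΔMSN1 (median 5.4) and 3.99 to 8.07 CPM in WT (median 5.81), with a log2 fold of −0.25 ± 0.12 (adjusted p = 0.134). The cellobiose dehydrogenase gene *cdh-1* (NCU00206) had 2.35 to 4.78 CPM in ΔMSN1 and 2.04 to 3.75 CPM in WT, with a log2 fold of 0.00 ± 0.11 (adjusted p = 0.990).

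*gh1-1* (NCU00130), a beta-glucosidase gene, was higher in ΔMSN1 at 11 of 12 times. It had 10.6 to 47.1 CPM in ΔMSN1 (median 23.7) and 5.66 to 17.1 CPM in WT (median 10.3), a 1.87-fold difference (log2 0.90 ± 0.16, adjusted p = 0.00104). Its highest ΔMSN1 values, 46.7 CPM at 8 h and 47.1 CPM at 22 h, are from the libraries that stood apart. Of the xylanase genes, *gh11-1* (NCU02855) was higher at 10 of 12 times, with 5.33 to 23.2 CPM in ΔMSN1 (median 8.80) and 2.72 to 7.52 CPM in WT (median 5.23), and a 1.78-fold difference (log2 0.83 ± 0.20, adjusted p = 0.00828). Without 8 h and 22 h, again chosen after seeing the data, the adjusted p of *gh1-1* and *gh11-1* stayed under 0.05, and over the 21 alternatives it was at most 0.00929 for *gh1-1* and 0.0451 for *gh11-1*. *gh10-3* (NCU04997), the leading xylanase gene, had 8.27 to 20.6 CPM in ΔMSN1 (median 13.9) and 8.18 to 22.4 CPM in WT (median 14.2), and did not pass the test (log2 fold −0.18 ± 0.12, adjusted p = 0.325).

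The pectin genes held both the highest level and the largest fold. The latter was in NCU08176, which passed the filter through WT alone, where it is higher. NCU08176 was low in both strains, at 0 to 2.73 CPM in ΔMSN1 (median 0.773) and 1.2 to 12.5 CPM in WT (median 4.36), and was lower in ΔMSN1 at all 12 times. The fold was 5.44 in favour of WT (log2 −2.44 ± 0.24, adjusted p = 2.55e-06), on sums of 60.9 estimated counts in ΔMSN1 and 299 in WT. *gh28-1* was lower in ΔMSN1 at 9 of 12 times but did not pass the test (log2 fold −0.71 ± 0.28, adjusted p = 0.0819). The 3 exceptions were 12, 14 and 16 h, and without the libraries of 12 h or of 16 h the adjusted p was 0.0250 or 0.0321.

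Of the 5 genes that fell, 3 were gh61 genes, and 9.93% of all genes fell. The gh61 genes are also the largest class, with 9 of the 26 genes tested, so this is not read as a trait of the class. The 2 largest gh61 falls, in NCU02344 and *gh61-9*, took up the difference between the strains in the summed level of the class. The 13 genes summed to 149 ± 24.4 CPM in ΔMSN1 and 221 ± 44.8 CPM in WT (SD, n = 12 each), whereas the 11 genes other than NCU02344 and *gh61-9* summed to 103 ± 17.7 CPM in ΔMSN1 and 93.7 ± 11.6 CPM in WT. The share of NCU02344 and *gh61-9* in the class was 23.4 to 38.9% in ΔMSN1 and 46.1 to 65.6% in WT. These 2 genes were picked out for their falls, so the sums are a description and no test was made of them.

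NCU02344 had 16.6 to 34.98 CPM in ΔMSN1 (median 28.8) and 39.1 to 101.6 CPM in WT (median 67.0). Its ranges did not overlap, which was true of 1 of the 26 genes and of 1.37% of all genes tested, and it was 2.78-fold lower in ΔMSN1 (log2 −1.48 ± 0.12, adjusted p = 4.11e-07). NCU02343 next to it had 75.1 to 174 CPM in ΔMSN1 (median 110) and 75.1 to 133.8 CPM in WT (median 107), and did not pass the test (log2 fold −0.05 ± 0.10, adjusted p = 0.785). The ratio of the CPM of NCU02344 to that of NCU02343 within a library was therefore 0.131 to 0.331 in ΔMSN1 and 0.413 to 0.95 in WT, with no overlap between strains. This separation follows from the fall of NCU02344 and is no added evidence. Ratios of other gene pairs were not compared.

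*gh61-9* (NCU05969) had 8.29 to 30.4 CPM in ΔMSN1 (median 18.9) and 26.7 to 106 CPM in WT (median 53.1). It was lower in ΔMSN1 at all 12 times by 3.33-fold (log2 −1.73 ± 0.21, adjusted p = 3.1e-05). *gh61-3* (NCU02916), with 2.33 to 6.40 CPM in ΔMSN1 (median 5.18) and 6.37 to 13.6 CPM in WT (median 8.33), was likewise lower at all 12 times (1.88-fold, log2 −0.91 ± 0.13, adjusted p = 0.000235). Of the 26 genes, 4 were lower at all 12 times, the others being NCU02344 and NCU08176, while 0.739% of all genes were. Of these, NCU08176 passed the filter through WT alone. These counts are on CPM from library totals, where the median log2 ratio over all genes was 0.19. Such a shift makes falls at all 12 times rarer and rises commoner than with TMM scaling. *gh61-5* (NCU08760) went up instead, with 6.06 to 13.7 CPM in ΔMSN1 (median 9.06), 3.95 to 7.45 CPM in WT (median 5.85) and a log2 fold of 0.48 ± 0.13 (adjusted p = 0.0145), a call lost without 8 h and 22 h (adjusted p = 0.0725). The other 5 tested gh61 genes had log2 folds between −0.27 and 0.03 and did not pass the test. Reads shared between similar genes of a family are divided by estimation in kallisto, which was not examined here.

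The time course was first compared as the late dark hours (12 to 22 h) over the early dark hours (0 to 10 h), with 6 cultures on each side. In ΔMSN1 edgeR called 0.178% of all genes and 0 of the 26 wall enzyme genes, with 4 at an unadjusted p under 0.05 and 0 by DESeq2, which called 0.315% of all genes. In WT it called 1.82% of all genes and 1 of the 26, *gh61-9*, with 5 at an unadjusted p under 0.05. The difference of these changes between strains was called for 0.205% of all genes and again for *gh61-9* alone, with 4 of the 26 at an unadjusted p under 0.05. How many of all genes reached an unadjusted p under 0.05 was not counted, so these counts are not read as an excess. The spread within each set of hours includes any other change with time.

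*gh61-9* averaged 15.7 ± 4.72 CPM late and 20.2 ± 6.14 CPM early in ΔMSN1, against 79.2 ± 18.3 CPM late and 37.2 ± 8.17 CPM early in WT (SD, n = 6 each). In WT all 6 late values (59.3 to 106 CPM) lay above all 6 early values (26.7 to 47.0 CPM), whereas in ΔMSN1 they overlapped (8.29 to 20.3 CPM late, 12.7 to 30.4 CPM early). How many of all genes part in this way was not counted. The log2 change was −0.30 ± 0.19 in ΔMSN1 (adjusted p = 0.736) and 1.06 ± 0.17 in WT (adjusted p = 0.000772), and the difference between strains was −1.36 ± 0.25 (adjusted p = 0.0161). Without the libraries of 12 h or of 14 h the adjusted p of this difference was 0.0525 or 0.0764, at a log2 difference of −1.38 or −1.25.

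**Figure D3:**
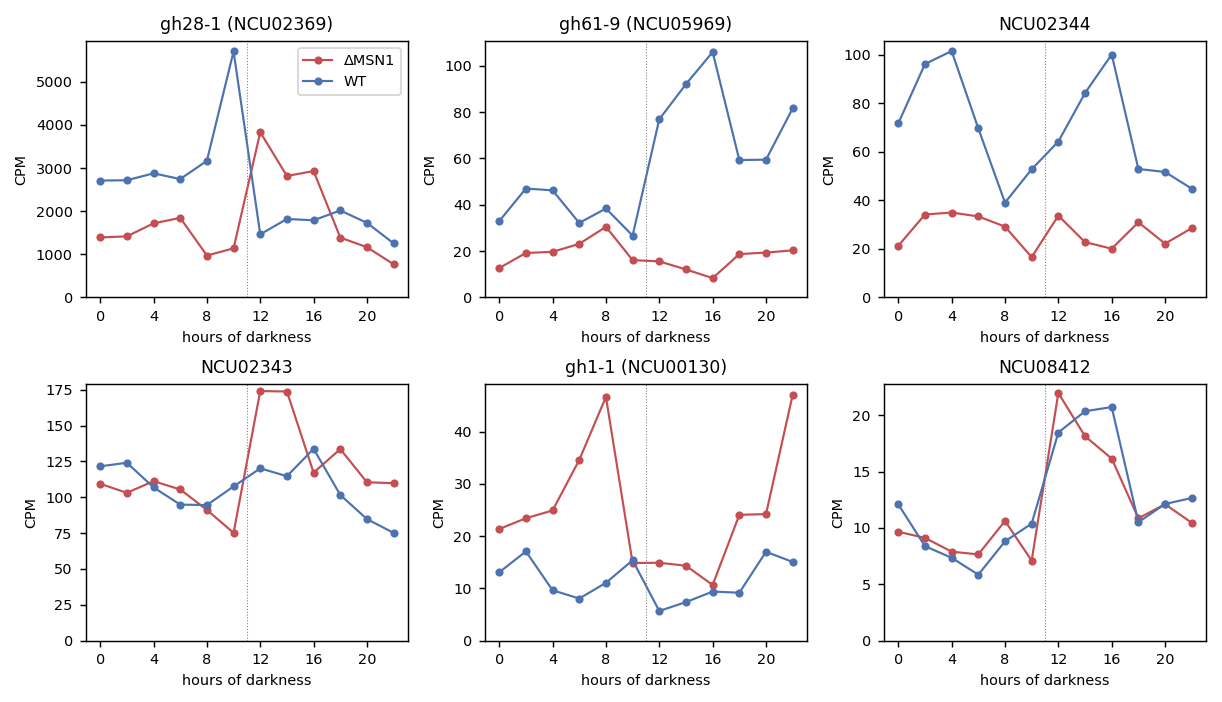
CPM of 6 genes against hours of darkness, 1 culture per point; the dotted line parts early from late dark hours, and each panel has its own CPM axis from 0. *gh61-9* is highest at 16 h in WT (106 CPM) where it is lowest in ΔMSN1 (8.29 CPM), *gh28-1* is highest at 12 h in ΔMSN1 (3832 CPM) and at 10 h in WT (5707 CPM), and NCU08412 follows a like course in both strains. CPM is on library totals, and the ΔMSN1 library of 16 h has the lowest total and TMM factor (0.838). *gh1-1* is also lowest in ΔMSN1 there, and *gh61-3*, not shown, has the same highest and lowest hours as *gh61-9*.

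*gh28-1* was lower in ΔMSN1 at all hours but 12, 14 and 16 h. It was at 1137 CPM at 10 h and 3832 CPM at 12 h in ΔMSN1, against 5707 CPM at 10 h and 1462 CPM at 12 h in WT. The early values were 970 to 1844 CPM in ΔMSN1 and 2710 to 5707 CPM in WT, and the late values were 767 to 3832 CPM in ΔMSN1 and 1252 to 2016 CPM in WT. The early ranges did not overlap, but how many of all genes part in this way over 6 hours was not counted. The log2 change from early to late hours was 0.76 ± 0.33 in ΔMSN1 (adjusted p = 0.544) and −1.01 ± 0.34 in WT (adjusted p = 0.128), and the difference, 1.77 ± 0.47, did not pass the test (adjusted p = 0.141), although it did in DESeq2 (adjusted p = 0.0325), which called 0.63% of all genes for this difference. *gh61-2*, at 0.868 to 6.08 CPM in ΔMSN1 and 0.766 to 8.01 CPM in WT, had the largest such difference, −2.04 ± 0.60 (adjusted p = 0.183). Its rise in WT passed the test only without the libraries of 8 h (log2 1.52, adjusted p = 0.0213) or of 8 h and 22 h (log2 1.56, adjusted p = 0.0260).

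Rhythms were then tested within each strain on 6 cosine and sine terms with periods of 22, 11 and 7.33 h together, with an adjusted p under 0.1 as the threshold. The series covers no more than 1 cycle of the longest period, so a rhythm here is a shape over 22 h and was not seen to repeat. Each fit put a mean and these 6 terms on 12 libraries, which leaves little to measure the spread. A gene that was not called may still have a rhythm. In ΔMSN1 edgeR called 0.041% of all genes and 0 of the 26 wall enzyme genes that passed its filter there, with 7 at an unadjusted p under 0.05. DESeq2 called 3 of the 26 (*gh11-1*, NCU02343 and *gh28-1*) and 2.5% of all genes, and limma-voom called 0 of the 26 and 0.0546% of all genes. In WT edgeR called 0.318% of all genes and 1 of 25 wall enzyme genes, NCU08412, with 9 at an unadjusted p under 0.05. DESeq2 called 4 of the 25 (NCU08412, NCU08176, NCU02344 and *gh61-9*) and 4.23% of all genes there, and limma-voom 0 of the 25 and 0.0829% of all genes. How many of all genes reached an unadjusted p under 0.05 was not counted, so the 7 and 9 genes are not read as an excess. Whether rhythms differed between the strains was not tested.

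NCU08412, an endo-beta-1,4-mannanase gene, had 7.09 to 22.0 CPM in ΔMSN1 (median 10.5) and 5.85 to 20.7 CPM in WT (median 11.3). Its highest values were at 12, 14 and 16 h in both strains, 22.0, 18.1 and 16.2 CPM in ΔMSN1 and 18.5, 20.4 and 20.7 CPM in WT. The fitted 22 h component peaked at 14.8 h with a fold of 2.54 in ΔMSN1 (adjusted p = 0.459 for all 3 periods together) and at 15.0 h with a fold of 2.80 in WT (adjusted p = 0.0834). The WT call was lost in limma-voom (adjusted p = 0.124) and on leaving out any time other than 0 h or 22 h (adjusted p between 0.129 and 0.259). Its level did not pass the strain test (log2 fold −0.21 ± 0.08, adjusted p = 0.0715), except without the libraries of 12 h (adjusted p = 0.0447).

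Of the other small p-values in ΔMSN1, *gh11-1* had a 3.21-fold component at 7.33 h (adjusted p = 0.124 for all 3 periods), with its highest values at 2 h (23.2 CPM), 22 h (15.8 CPM) and 8 h (14.8 CPM). It was called without the library of 22 h (adjusted p = 0.0634) and without those of 8 h and 22 h (adjusted p = 0.0802). NCU02343 had its largest component at 11 h (1.75-fold) and *gh61-2* at 22 h (2.80-fold), both at an adjusted p of 0.407. In WT, NCU08176 had a 22 h component of 5.64-fold that peaked at 14.2 h (adjusted p = 0.132), and was called without the library of 0 h (adjusted p = 0.0484) or of 22 h (adjusted p = 0.0718). NCU02344 in WT was high at 2 and 4 h (96.2 and 101.6 CPM) and again at 14 and 16 h (84.2 and 100.1 CPM), which the fit gave as an 11 h component of 2.30-fold (adjusted p = 0.273).

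**Figure D4:**
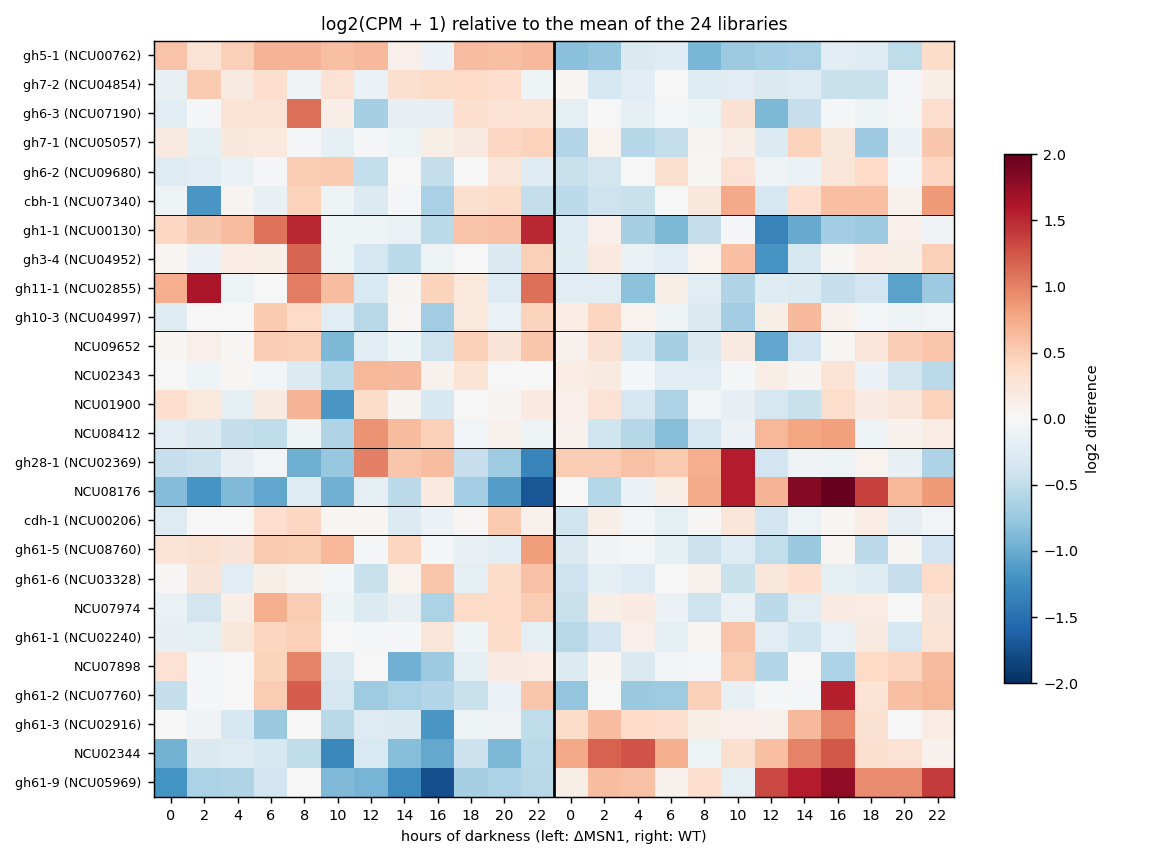
Log2(CPM + 1) of the 26 tested genes in each library relative to the gene's mean over the 24 libraries, with ΔMSN1 on the left, WT on the right and the genes in order of class. The 8 h and 22 h columns of ΔMSN1 are raised for many genes, and NCU08176, NCU02344 and *gh61-9* are lower in ΔMSN1 than in WT at every hour. CPM is on library totals, and these 8 h and 22 h libraries have the highest TMM factors.

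The hour of the highest library was also set beside that of all genes. In ΔMSN1, 15 of the 26 genes were highest at 8 h (10 genes) or 22 h (5 genes), the libraries that stood apart, where 52.3% of all genes were highest. In WT, 11 of the 26 were highest at 22 h and 7 at 16 h, and 19 of the 26 were highest in the late hours, as were 69.0% of all genes. These hours are on CPM from library totals, where a library with a high TMM factor has raised values. The factors were highest at 8 h (1.26) and 22 h (1.21) in ΔMSN1 and at 22 h (1.10) in WT. The hours were not counted with TMM scaling, so they are not read as time courses. The highest library exceeded the lowest by a median of 2.75-fold in ΔMSN1, over the 25 genes with no library at 0, and 2.80-fold in WT over the 26 genes.

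None of the regulators tested passed the strain test. Of 10 genes for regulators and sugar transporters, 6 were tested. Of these edgeR called 0 (21.8% of all genes), with 2 at an unadjusted p under 0.05, a share not counted over all genes. DESeq2 and limma-voom also called 0 (18.9% and 22.2% of all genes). With 6 genes, 0 called cannot be told apart from these shares. *clr-2* and *xlr-1*, activators of cellulase and xylanase genes, were under the filter at means of 0.612 and 2.21 CPM in ΔMSN1 and 0.533 and 1.47 CPM in WT. *clr-1*, an activator of cellulase genes, had 3.56 to 14.7 CPM in ΔMSN1 and 4.25 to 11.3 CPM in WT (log2 fold 0.18 ± 0.12, adjusted p = 0.317). *cre-1*, the carbon catabolite repressor, had 62.8 to 237 CPM in ΔMSN1 and 69.7 to 184 CPM in WT (log2 fold −0.11 ± 0.13, adjusted p = 0.572).

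Of 12 further wall enzyme genes, 6 were tested, of which 1 was higher (11.9% of all genes) and 2 were lower in ΔMSN1 (9.93% of all genes). NCU05159 rose (log2 0.64 ± 0.11, adjusted p = 0.000783), with 9.4 to 22.8 CPM in ΔMSN1 and 6.43 to 11.6 CPM in WT. Both that fell act on pectin, the pectate lyase gene NCU06326, with 114 to 533 CPM in ΔMSN1 and 165 to 663 CPM in WT (log2 −0.52 ± 0.14, adjusted p = 0.0149), and *gh28-2* (NCU06961), an exopolygalacturonase gene, with 5.27 to 39.7 CPM in ΔMSN1 and 17.7 to 42.7 CPM in WT (log2 −0.64 ± 0.19, adjusted p = 0.0212). Both overlapped between the strains.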

How the data were processed

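Estimated counts per gene from poly(A) RNA libraries were deposited by the authors, who used kallisto 0.43.1; for the genome build they quantified on, nothing is stated in the sources used. How the deposited estimated counts were scaled is not known. Only 11.5 to 15.4% of the values are whole, and across 1098 genes at 0 in 6 to 23 libraries the lowest nonzero value is smaller in longer genes (r = −0.77 on ln scales, genes not being independent), so CPM may not stand for reads and CPM per kilobase may correct for length again. Multiplying the values by gene length was therefore an alternative.

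All 24 columns were mapped by their labels. The values were rounded and fitted over all genes with R 4.3.3, edgeR 4.0.16 (quasi-likelihood tests, TMM, mean of at least 2 CPM, Benjamini-Hochberg adjustment over all genes), limma 3.58.1 and DESeq2 1.42.0, with Python 3.11.15 for tables and plots. Scripts were tested on simulated data. Thresholds were an adjusted p of 0.05 for strain and dark hours and 0.1 for rhythms, and p-values measure the spread between single cultures, after strain and time or dark hours. In the rhythm fits the filter was applied within a strain.

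Members, lists and tests were chosen with earlier results of these data known. Named genes are those past a threshold, the top gene of each class per kilobase, the 3 highest and 3 lowest strain folds, the 3 smallest rhythm p-values per strain and all genes under the filter, with 4 regulators and the other pathway genes past the strain threshold. The genes just inside or outside the filter, those of the level order, *gh7-2*, the named conidiation markers and the genes with a single high library were named after their values were seen. Gene names, lengths and neighbours come from RefSeq for the NC12 assembly, in which 9729 of 9730 identifiers were found, and some roles from the tables of the study. Promoter and protein sequences were not analysed here. Alternatives were other scalings, filters and tools, no time term, values times gene length, and leaving out each time.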

Additional observations from a re-analysis of the deposited data

Results flagged for a closer look

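The strains differed in the change of *gh61-9* over the dark hours (log2 late over early, ΔMSN1 minus WT, −1.36, edgeR adjusted p = 0.0161), as described above.

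In each strain the 6 early and the 6 late libraries of each of the 26 tested genes were searched for a highest or lowest value that stood far from the rest (Dixon's test). Of 104 such groups, 11 held one. The limit used gives about 1 in 20 for independent, normally spread values. These groups share libraries and follow a time course, so the 11 of 104 is not read as an excess. The same search was not made over all genes. In ΔMSN1 these were the 8 h values of *gh6-3* (14.3 CPM), *gh3-4* (17.1 CPM) and NCU08176 (1.72 CPM), and the 22 h values of *gh1-1* (47.1 CPM) and *gh61-2* (3.51 CPM), so all 5 lie in the libraries of 8 h and 22 h that correlate least with the others. In WT they were the 10 h values of *gh28-1* (5707 CPM), *gh6-3* (7.83 CPM) and NCU07898 (5.39 CPM), the 14 h value of *gh10-3* (22.4 CPM), the 16 h value of *gh61-2* (8.01 CPM) and the 22 h value of *gh5-1* (3.44 CPM). All 11 were the highest of their group.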

How the results depend on the processing

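Log2 folds were followed over the alternatives for the genes called in the strain test, *gh28-1* and NCU08412, and over the dark hours for *gh28-1*, *gh61-2* and *gh61-9*. None of these changed sign. The other folds given were not followed, and small ones can depend on the scaling. NCU02343, for example, had a log2 fold of −0.05 with TMM scaling, but a ratio of mean CPM of 1.11 on library totals. The strain test called between 7 and 11 of the wall enzyme genes over 21 alternatives. *gh1-1*, *gh11-1*, *gh61-3*, *gh61-9* and NCU02344 were called in all of them, and so were *gh5-1* and NCU08176 wherever they passed the filter, which neither did at a mean of 5 CPM and NCU08176 did not with values times gene length. The strain test called 1596 genes, but 2655 without TMM factors and 1009 without 8 h and 22 h, both chosen after seeing the data; leaving out each time gave 1214 to 1774. No replicate numbers are shared in the labels; the libraries were paired by time, and without the time term 1495 genes were called, with *cbh-1* lost.

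Counts for the dark hours and rhythms moved more, and the cause was not tested. For late over early hours in ΔMSN1, DESeq2 called 23 genes (edgeR 13) and leaving out each time gave 2 to 18. In WT 65 genes (all times 133) were called without 0 h and 22 h, 2 wall enzyme genes without 8 h and 22 h, and leaving out each time gave 64 to 154 genes and 1 to 2 wall enzyme genes. For the strain difference DESeq2 called 46 genes and 2 wall enzyme genes (edgeR 15 and 1), 7 genes were called without 0 h and 22 h, and leaving out each time gave 2 to 30 genes and 0 to 1 wall enzyme gene. For rhythms in ΔMSN1 (edgeR 3 genes, 0 of the wall enzymes), DESeq2 called 183 and 3, the 22 h terms alone 14 genes, and the fit without 8 h and 22 h 68 and 1, while leaving out each time gave 0 to 82 and 0 to 1. For rhythms in WT (edgeR 23 and 1), DESeq2 called 306 and 4, limma-voom 6 and 0, the 22 h terms alone 134 and 2, and values times gene length 58 genes, while leaving out each time gave 0 to 454 and 0 to 4.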
